A study of Mus musculus with 8 samples.

Results

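Cd59a, Klhl33, Tdrp, Gal, Limch1 and Cdh15 are 6 genes whose mRNA was lower in mature osteoblasts (mOBs) of heterozygous (Het) G610C mouse pups than in those of wild type (WT) pups. They are 6 of the 31053 genes listed in the deposited count tables, and they were chosen because their levels were lower in Het mOBs. That difference is therefore described here by its values and is not tested. Cells came from parietal bone of pups at postnatal days 4 to 5. Het pups carried 1 copy of the G610C allele of Col1a2, which replaces a helical glycine of the proα2(I) chain and serves as a mouse model of osteogenesis imperfecta (strain B6.129(FVB)-Col1a2tm1Mcbr/J, on C57BL/6J), and WT pups lacked it. Each of the 8 libraries, 4 WT (S1, S2, S5 and S6) and 4 Het (S3, S4, S7 and S8), pooled cells of several animals of the same genotype, so the library was the replicate and differences between animals cannot be seen. S1 to S4 were made with kit version 3 and S5 to S8 with kit version 3.1 of the droplet chemistry, and the counting software changed with the kit.

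Osteoblasts (OBs) are the cells that lay down bone. Early OBs already express Runx2 and Sp7, and mature OBs devote a large part of their mRNA to type I collagen before some of them become osteocytes in the mineral. The 6 genes belong to different families. Cd59a encodes a lipid-anchored surface protein that blocks the membrane attack complex of complement. Klhl33 is a kelch-like gene, a family whose members serve as adaptors of Cul3 ubiquitin ligases. Tdrp encodes a testis development related protein best known from spermatogenesis. Gal encodes galanin, a secreted neuropeptide with G protein-coupled receptors. Limch1 encodes a protein with LIM and calponin homology domains that activates non-muscle myosin II, and Cdh15 encodes M-cadherin, a calcium-dependent adhesion molecule of the muscle lineage.

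Of the 46420 cells kept, 2671 were OBs, selected by UMI counts (unique molecular identifiers, 1 per captured mRNA molecule) of at least 10 for Col1a1 and at least 2 for at least 2 of Runx2, Sp7 and Ibsp. Their stage was set by the share of a cell's UMIs that came from Col1a1, with early OBs (eOBs) under 0.75%, differentiating OBs (dOBs) from 0.75% to 3.5% and mOBs over 3.5%. There were 249 WT and 130 Het eOBs, 800 WT and 417 Het dOBs, and 657 WT and 418 Het mOBs, and a library held between 42 (S8) and 299 (S5) mOBs. Of the 10 genes that most set a stage apart from other cells, 4 in mOBs and 1 in dOBs were fixed osteoblast markers and none in eOBs, where Limch1 itself led, so eOB is used as the name of a Col1a1 range. The mOB markers included Col1a1 and Ibsp, which had also served to select the cells, so that count was partly fixed by the selection. Levels are given as CPM, the gene's share of all UMIs of the cells summed, scaled to a common total. Library totals ran from 30480239 to 85162035 UMIs. Pairs of libraries shared at most 61 cell barcodes, and at most 0.663% of the smaller library's barcodes. The substitution itself cannot be read from 3′ counts, and Col1a2 was abundant in mOBs of every library, from 34369 CPM (S7) to 81487 CPM (S1). The WT libraries of kit version 3 stood apart: in S1 and S2 the summed level of 11 haematopoietic markers in mOBs was 670.7 and 487.6 CPM, against 1.5 to 164 CPM in the other 6 libraries. The fold changes in mOBs are therefore given also for kit version 3.1 alone. In that set, however, most mOBs had at least 3 markers of another class. Without such cells, 108 of 299 mOBs remained in S5, 79 of 208 in S6, 25 of 105 in S7 and 9 of 42 in S8. With kit version 3, 66 of 73 remained in S1, 70 of 77 in S2, 59 of 79 in S3 and 170 of 192 in S4.

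On mouse build GRCm38, Cd59a lies at chr2:104095801-104115354 (+ strand), Klhl33 at chr14:50888582-50897507 (− strand) and Tdrp at chr8:13952008-13975032 (− strand). Gal lies at chr19:3409915-3414544 (− strand), Limch1 at chr5:66745827-67057158 (+ strand) and Cdh15 at chr8:122847966-122867397 (+ strand). All are annotated as protein coding. The readthrough gene Gm20388 overlaps Cdh15, and small predicted genes overlap Limch1, on the same strand, so reads in shared stretches may be uncertain. The genes are spread over 5 chromosomes, so they are not a cluster of neighbours. RefSeq promoter windows were found for 5 of the 6 genes. The 250 bases before the start site are shown for the 3 genes whose first window lay outside the annotated gene or within 30 bases of its edge, to set side by side the sequence before genes that were lower together. They are written 5′ to 3′ on the gene's strand (RefSeq, GRCm38.p6), and capitals mark matches on either strand to TGTGGT (the core letters of a RUNX site), TGANTCA (AP-1), CANNTG (E-box) or TATAAA.
Cd59a, chr2:104095551-104095800: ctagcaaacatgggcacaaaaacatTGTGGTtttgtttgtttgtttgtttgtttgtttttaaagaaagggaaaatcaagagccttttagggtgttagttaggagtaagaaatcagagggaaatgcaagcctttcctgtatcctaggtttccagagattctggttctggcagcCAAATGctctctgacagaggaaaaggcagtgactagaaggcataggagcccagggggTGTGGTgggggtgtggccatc
Klhl33, chr14:50897484-50897733: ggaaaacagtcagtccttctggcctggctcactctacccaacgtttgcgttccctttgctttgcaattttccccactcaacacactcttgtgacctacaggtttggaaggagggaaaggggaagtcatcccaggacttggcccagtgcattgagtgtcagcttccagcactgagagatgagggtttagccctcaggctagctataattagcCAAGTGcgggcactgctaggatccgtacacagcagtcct
Gal, chr19:3414545-3414794: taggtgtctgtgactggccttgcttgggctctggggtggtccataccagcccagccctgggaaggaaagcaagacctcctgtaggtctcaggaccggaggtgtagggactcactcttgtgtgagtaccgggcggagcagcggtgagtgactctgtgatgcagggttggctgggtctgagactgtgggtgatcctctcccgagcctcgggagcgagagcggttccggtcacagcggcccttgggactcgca
The Cd59a window held TGTGGT at 2 places and CANNTG at 1, the Klhl33 window held CANNTG at 1 place, and the Gal window held none of the 4. Among 32841 windows of the same length over all genes, TGTGGT or its complement was in 14.05%, CANNTG in 66.23%, TATAAA in 12.37% and TGANTCA in 6.75%. A match is a description of the letters and no binding was measured.

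In mOBs, Cd59a had the largest difference of the 6 in the main fit to all libraries, but this rank depended on the fit. With kit version 3 alone Limch1 (-3.07) lay beyond Cd59a (-2.92). With kit version 3.1 alone Klhl33 (-2.07), Tdrp (-1.85) and Gal (-1.50) lay beyond it (-1.39). The level of Cd59a was 80.4, 79.6, 18.0 and 15.2 CPM in WT libraries S1, S2, S5 and S6, and 9.32, 12.3, 5.72 and 9.03 CPM in Het libraries S3, S4, S7 and S8. Every Het library lay below every WT library, and among WT libraries the kit version 3 pair was far above the kit version 3.1 pair. The fitted log2 fold change, Het over WT with kit version in the model, was -2.49 (SE 0.26), from a WT mean of 48.3 ± 36.6 CPM to a Het mean of 9.08 ± 2.67 CPM (SD, n = 4 each).

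Klhl33 had the steadiest WT level. It stood at 52.2, 84.6, 45.0 and 56.0 CPM in the WT libraries and at 17.3, 19.95, 9.88 and 19.6 CPM in the Het libraries, in the order used above. The groups did not overlap, and here the kit versions did not split the WT libraries. The log2 fold change was -1.96 (SE 0.22).

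Limch1 was measured at 96.0, 139, 42.1 and 66.6 CPM in WT mOBs and at 7.33, 19.3, 28.1 and 30.1 CPM in Het mOBs. The groups did not overlap, but the gap was wide in kit version 3 and narrow in kit version 3.1. The log2 fold change was -2.07 (SE 0.38). A single WT cell of S6 held 107 of that library's 320 Limch1 UMIs, and without it S6 stood at 44.9 CPM, still above the Het libraries.

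Tdrp reached 36.0, 41.2, 5.85 and 9.99 CPM in WT mOBs and 6.66, 7.35, 2.60 and 1.5 CPM in Het mOBs. The groups overlapped through S5, which lay below both Het libraries of kit version 3. The log2 fold change was -2.36 (SE 0.27).

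Gal was at 40.2, 25.3, 6.52 and 8.32 CPM in WT mOBs and at 7.99, 7.0, 2.08 and 4.51 CPM in Het mOBs. These groups overlapped as well, again through S5. The log2 fold change was -2.05 (SE 0.29). The kit version 3.1 values rest on few molecules, 4 UMIs in S7 and 3 in S8. In S5, 1 cell held 13 of the 29 Gal UMIs, and without it S5 stood at 3.62 CPM, between S7 and S8.

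Cdh15 showed the smallest difference in the main fit to all libraries. With kit version 3.1 alone that of Limch1 (-0.997) was smaller than that of Cdh15 (-1.05). Cdh15 was at 42.0, 58.6, 10.8 and 10.6 CPM in WT mOBs and at 18.0, 19.6, 5.2 and 6.02 CPM in Het mOBs. The groups overlapped across kit versions and not within them. The log2 fold change was -1.36 (SE 0.19).

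**Figure D1:**
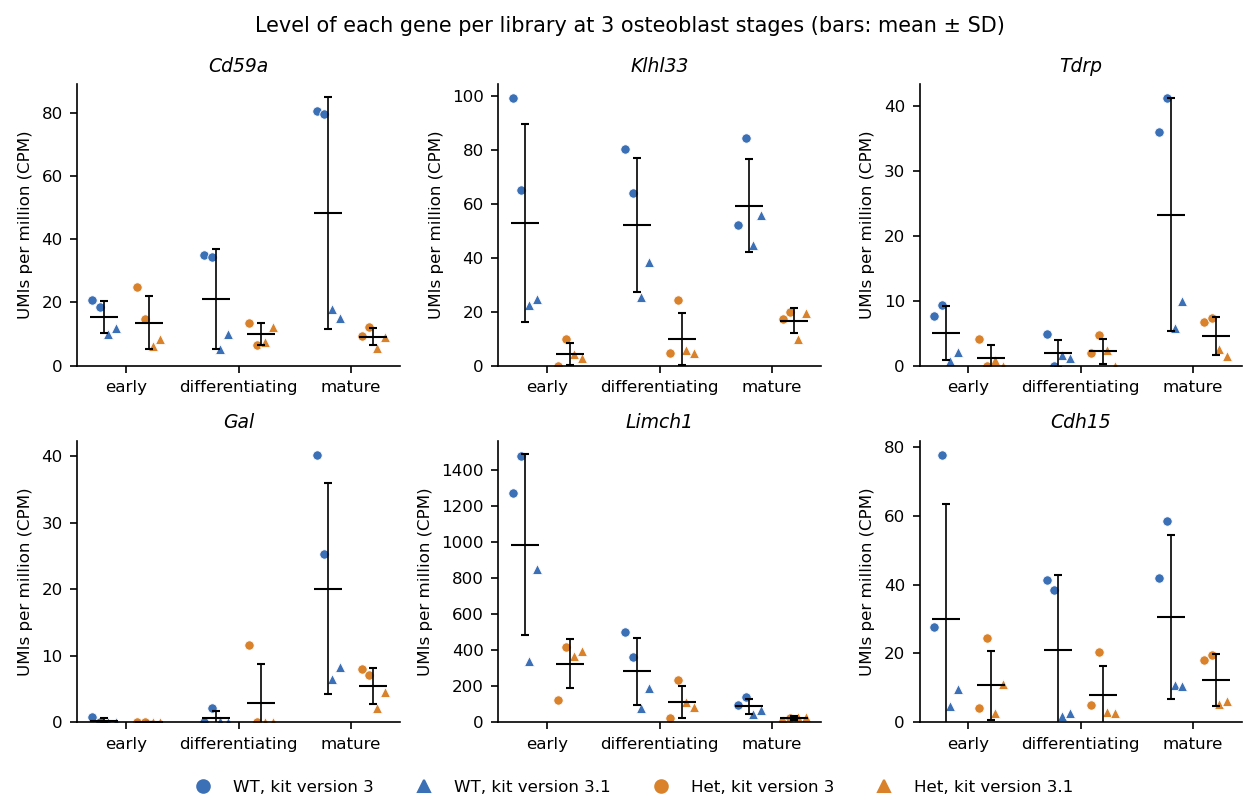
Level of each of the 6 genes (CPM, linear axis from 0) in every library at the early, differentiating and mature OB stage; blue points are WT, orange points Het, circles kit version 3, triangles kit version 3.1, and black bars mean ± SD of 4 libraries, with the lower end not drawn below 0. In mOBs, all Het points of Cd59a, Klhl33 and Limch1 lie below all WT points, and Limch1 is highest in eOBs.

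Within each kit version, both Het libraries lay below both WT libraries for all 6 genes, which the choice of genes favoured and from which nothing is read. Of the 9623 genes tested in mOBs, 303 (3.15%) had this order. Levels of all 4 Het libraries below all 4 WT libraries, as for Cd59a, Klhl33 and Limch1, occurred in 73 genes (0.759%), and the opposite order in 178 (1.85%). With kit version 3 alone the log2 fold changes were -2.92 for Cd59a and -3.07 for Limch1, and with kit version 3.1 alone they were -1.39 and -0.997. The other 4 genes with kit version 3.1 alone were at -2.07 for Klhl33, -1.85 for Tdrp, -1.50 for Gal and -1.05 for Cdh15. Whether the difference depended on the kit version was not tested. Across 51 genes called in mOBs at an adjusted p under 0.05 (0.530% of those tested, edgeR's quasi-likelihood test with Benjamini-Hochberg adjustment), 36 (0.374%) were higher and 15 (0.156%) lower in Het. Of the 6 genes Cdh15 had the smallest difference in the main fit to all libraries. Bglap at -2.08 and Sned1 at -1.63 (SE 0.32) lay between the 6 in size, and just beyond Cdh15 were 4833422C13Rik at -1.30 (SE 0.24) and Wif1, a secreted Wnt inhibitor, at -1.23 (SE 0.16). These values are descriptions.

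Cells of another type among the mOBs were looked for by their markers. The muscle regulators Myod1, Pax7 and Myog had 0 UMIs in mOBs of all 8 libraries and Myf5 had 1 UMI in each of S5 and S7. The summed level of 11 skeletal muscle markers was 1.45 to 5.4 CPM in WT and 1.5 to 9.32 CPM in Het mOBs. The sum of 4 neuronal markers was at most 2.47 CPM in any library. Erythroid markers summed to 7.2 and 55.0 CPM in mOBs of S1 and S2, to 1.12 and 1.04 CPM in S5 and S6, and to 0.520 to 14.0 CPM in the Het libraries. In erythroid-like WT cells, where Cd59a stood at 92.3 ± 47.0 CPM (SD, n = 4), the same markers summed to between 3994 and 7041 CPM. Smooth muscle or pericyte markers summed to 35.4 and 31.8 CPM in WT mOBs and to 133 and 66.5 CPM in Het mOBs of kit version 3, and to 150.5 and 118 CPM in WT and 234 and 348 CPM in Het of kit version 3.1, so that in each kit version both Het libraries were above both WT libraries. In smooth muscle or pericyte-like cells of WT the same markers summed to at least 11413 CPM. Fibroblast markers summed to 18.1 to 51.1 CPM in WT and 31.2 to 128 CPM in Het mOBs, glial markers to 8.4 to 15.4 and 12.0 to 23.8 CPM, osteoclast markers to 344 to 593 and 409 to 618 CPM. Chondrocyte markers summed to 1537 to 1831 CPM in WT and to 1272 to 3776 CPM in Het mOBs, where S8 was the highest. The part of these other cell types in the levels of the 6 genes was not tested. Endothelial markers summed to 11.2 to 20.2 CPM in WT and 3.01 to 35.3 CPM in Het mOBs, against at least 7433 CPM in endothelial-like cells of WT. The part that haematopoietic RNA in S1 and S2 had in the levels there was not tested. Osteocyte markers summed to 604 to 880 CPM in WT and 675 to 1262 CPM in Het mOBs.

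The difference at earlier stages varied by gene, and these values also belong to the comparison that chose the genes. Klhl33 was lower in Het at all 3 stages. In eOBs it was at 99.5, 65.4, 22.6 and 24.7 CPM in the WT libraries, and at 0, 9.80, 4.47 and 2.79 CPM in the Het libraries, with 8 UMIs over all 4 Het libraries against 202 over the WT ones. In dOBs the WT libraries ran from 25.4 to 80.5 CPM and the Het libraries from 4.79 to 24.2 CPM. Neither stage overlapped, an order found in 60 (0.624%) of the same 9623 genes in eOBs and in 57 (0.592%) in dOBs. The log2 fold changes of Klhl33 were -3.21 (SE 0.45) in eOBs and -2.43 (SE 0.30) in dOBs.

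Before the mOB stage the Cd59a difference varied by kit version. In dOBs its WT libraries were at 35.0, 34.2, 5.23 and 10.0 CPM and its Het libraries at 13.5, 6.52, 7.64 and 12.3 CPM. The groups overlapped. The pooled level was 34.8 CPM in WT and 9.94 CPM in Het cells with kit version 3, but 7.51 CPM in WT and 9.04 CPM in Het cells with kit version 3.1. In eOBs the kit versions differed the other way. There Cd59a was at 20.4 CPM in WT and 20.2 CPM in Het with kit version 3, from 33 and 9 UMIs. With kit version 3.1 it was at 10.8 and 6.77 CPM, from 24 and 10 UMIs. The fitted log2 fold change in dOBs was -0.60 (SE 0.41). Limch1 in eOBs was at 1273, 1483, 341 and 849 CPM in WT and at 120, 416, 368 and 396 CPM in Het libraries. S5 was the only WT library inside the Het range there. The log2 fold changes of Limch1 were -1.52 (SE 0.43) in eOBs and -1.09 (SE 0.51) in dOBs. These too varied by kit version. Pooled Limch1 in eOBs was at 1315 CPM in WT and 256 in Het with kit version 3, and at 555 and 374 with 3.1. In dOBs these levels were 461 and 128 CPM with kit version 3, and 129 and 102 CPM with 3.1. With kit version 3.1 the dOB libraries overlapped, WT at 74.7 and 190 CPM and Het at 110 and 84.8 CPM. Cdh15 ran from 4.68 to 77.9 CPM in WT and from 2.68 to 24.5 CPM in Het eOBs. Tdrp, Gal and Cdh15 at both earlier stages, and Cd59a in eOBs, were too low for this fit. In Het dOBs, all 12 Gal UMIs came from 1 cell of S3.

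In WT libraries the 6 genes followed different courses from eOBs to mOBs. The step from eOBs to dOBs did not involve the mOB values and was tested, with the library as a block. It compares stages within WT, whereas the genes were chosen for a difference between genotypes. The WT eOB and dOB values may still have had a part in that choice, so the p-values are not fully independent of it. Limch1 fell by 1.89 on the log2 scale (SE 0.16, adjusted p = 0.000388, edgeR's quasi-likelihood test, lower in 4 of 4 libraries), from 986 ± 505 to 281 ± 187 CPM (SD, n = 4). In this comparison 520 of 9770 genes (5.32%) were called, 223 (2.28%) higher and 297 (3.04%) lower in dOBs. Klhl33 (log2 fold change 0.12, SE 0.19, adjusted p = 0.847, edgeR), Cd59a (0.16, SE 0.33, adjusted p = 0.894) and Cdh15 (-0.50, SE 0.40, adjusted p = 0.620) did not pass the test. Cdh15 stood at -1.31 (SE 0.37, adjusted p = 0.0778, edgeR) without S1, and over the alternatives tried its adjusted p ran from 0.0778 to 1. Tdrp and Gal did not reach the count filter. Without the library block the Limch1 call was lost (adjusted p = 0.711, edgeR), and its fold change was -1.77 (SE 0.67).

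The last step, to mOBs, is described only, since the WT mOB values took part in choosing the genes. Gal was nearly absent before it, with 1 UMI in 3831792 over WT eOBs and 2 UMIs in 13679314 over WT dOBs, against 171 in 12300439 over WT mOBs. The ratio of the pooled levels in WT mOBs and dOBs was 95.1, with an exact 95% counting interval from 25.9 to 791. Tdrp was at 5.00 ± 4.17 CPM in WT eOBs, 1.92 ± 2.08 in dOBs and 23.3 ± 17.9 in mOBs (SD, n = 4). Its mOB level was above its eOB and dOB level in each of the 4 WT libraries, but without the OBs that had markers of another class it was above the eOB level in 3 of them (mean 1.22, SD 1.54, on the log2(CPM + 1) scale). Cd59a likewise was higher in mOBs than in eOBs in 4 of 4 WT libraries, by a mean of 1.26 on that scale (SD 0.84). The step was 1.90 and 2.03 in S1 and S2, and 0.77 and 0.34 in S5 and S6. In Het libraries Cd59a showed no such step, with a mean of -0.39 (SD 0.63) and 1 of 4 libraries higher. Limch1 went on falling, by 3.44 on that scale from eOBs to mOBs in WT (SD 0.33) and by 3.89 in Het (SD 0.33). Klhl33 changed by 0.39 (SD 0.93) in WT, and was higher in mOBs in 4 of 4 Het libraries, by 2.15 (SD 1.53), from the few UMIs of Het eOBs. With a pseudocount of 10 CPM that Het mean was 0.93 (SD 0.48), and without the OBs that had markers of another class it was 0.46 (SD 3.84), with 2 of 3 libraries higher. Cdh15 changed by 0.34 (SD 0.62) in WT and 0.38 (SD 1.19) in Het. Without the OBs that had markers of another class, the WT means of Klhl33 and Cdh15 turned to -0.14 and -0.82, and Cd59a was higher in 3 of 4 WT libraries (mean 1.01, SD 1.42).

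Het mOBs held less Col1a1 than WT mOBs in kit version 3. It made up 6.69% and 8.22% of UMIs in S3 and S4, and 12.3% and 10.6% in S1 and S2. The levels were therefore also compared in OBs grouped by Col1a1 share. Above 9% Col1a1, with 237 WT and 122 Het cells, Cd59a was at 54.6 ± 33.2 CPM in WT and 7.05 ± 9.38 in Het libraries (SD, n = 4 each). The ranges did not overlap in this stratum, with WT from 24.1 to 84.3 and Het from 0 to 19.8 CPM. The choice of genes favoured this order, its share among all genes was not counted here, and nothing is read from it. Between 3.5% and 6% the ranges overlapped, with WT from 7.996 to 89.5 and Het from 5.52 to 9.26 CPM. They also overlapped between 6% and 9%, with WT from 10.9 to 95.9 and 3 Het libraries from 6.97 to 16.1 CPM. The stratum above 9% has no upper limit, so Col1a1 share was not matched within it. Limch1 there was at 44.7 ± 27.6 in WT and 5.02 ± 5.37 CPM in Het. The Het values rest on 24 UMIs of Cd59a and 16 of Limch1, with 15 cells in each of S3, S7 and S8. In S7 both genes had 0 UMIs, which allows up to 18.2 CPM, while the lowest WT library, S5, was at 24.1 CPM for Cd59a and 18.0 CPM for Limch1. Klhl33 was at 59.9 ± 20.9 and 28.6 ± 12.3 CPM, and Tdrp at 30.6 ± 15.6 and 8.87 ± 4.16 CPM. Gal was at 29.0 ± 14.0 and 14.9 ± 2.81 CPM, and Cdh15 at 30.7 ± 16.9 and 11.6 ± 13.7 CPM. Klhl33, Gal and Cdh15 overlapped between the groups in this stratum. The lowest WT level of Tdrp was 12.8 CPM (S5) and the highest Het level 12.6 CPM (S4), and since its level in S7 rests on 2 UMIs, no separation of the groups is read for it. In cells between 3.5% and 6%, just inside the limit of the mOB stage, the pooled WT levels of Tdrp and Gal were 2.52 and 1.74 CPM, against 1.63 and 0.297 CPM just outside it, between 2% and 3.5%. The means over libraries were 7.05 ± 6.16 and 5.80 ± 10.2 CPM inside (SD, n = 4) and 3.67 ± 3.95 and 0.0968 ± 0.168 CPM outside (SD, n = 3). In WT cells with more than 9% the pooled levels were 28.6 and 28.4 CPM, the highest of the groups of Col1a1 share. The Het libraries above 9% still held Gal in all 4, from 12.6 to 18.2 CPM, but only 25 UMIs in all.

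**Figure D2:**
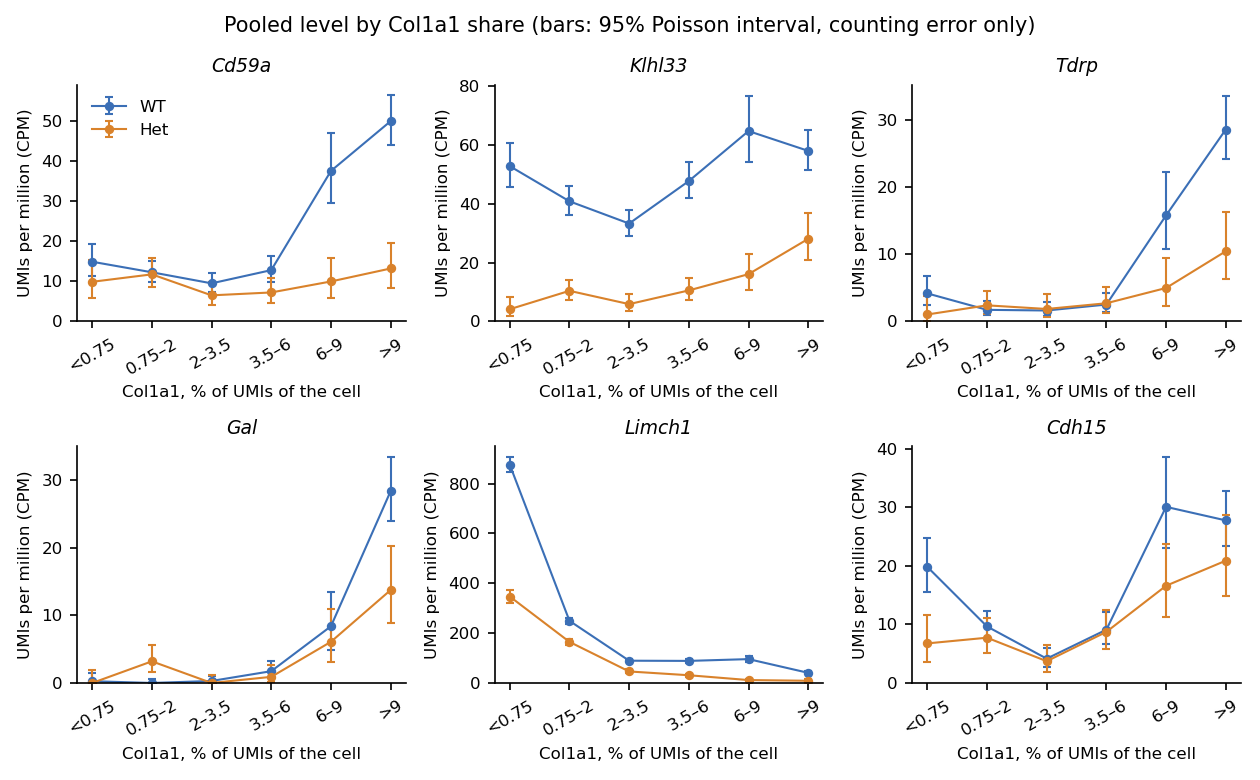
Level of each gene pooled over the WT (blue) and Het (orange) libraries (CPM, linear axis from 0) in OBs grouped by the share of the cell's UMIs that were Col1a1; bars are 95% Poisson intervals and cover counting error only, not the spread between libraries. Tdrp and Gal reach their highest levels above 9% Col1a1, Klhl33 is lower in Het in every group, and Limch1 is highest under 0.75% Col1a1 in both genotypes.

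The mOBs were also split by whether they held at least 1 UMI of an osteocyte marker, which 477 WT mOBs did (median 16983 UMIs and 9.67% Col1a1) and 180 did not (median 11992 UMIs and 5.87% Col1a1). Of those without, 103 were of S5 and 54 of S6, so the split is given by library. Cd59a was at 80.7 CPM in cells with and 77.6 CPM in cells without a marker in S1, at 82.2 and 47.4 in S2, at 21.5 and 7.92 in S5, and at 17.5 and 6.76 in S6. It was thus nearly level in S1, where 12 cells lacked a marker, and higher with a marker in the other 3. Gal was at 42.0 and 23.9 CPM in S1, 25.1 and 28.5 in S2, 8.46 and 0.880 in S5, and 10.6 and 0 in S6. In the Het libraries Cd59a was at 5.76 CPM with and 24.5 CPM without a marker in S3, 13.6 and 4.60 in S4, 5.38 and 6.87 in S7, and 4.51 and 18.1 in S8, in no common direction and from 2 to 33 UMIs each. These splits were made within the same cells and were not tested.

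The share of mOBs with at least 1 UMI of a gene was also counted, over all UMIs and at matched depth. Shares pooled over cells mix the kit versions unequally, since 299 and 208 of the 657 WT mOBs came from S5 and S6 with kit version 3.1, and 79 and 192 of the 418 Het mOBs from S3 and S4 with kit version 3. Pooled over all cells, Cd59a had a UMI in 179 of 657 WT mOBs (27.2%, exact 95% interval 23.9% to 30.8%) and in 48 of 418 Het mOBs (11.5%, 8.59% to 14.9%), and positive cells held 2.22 UMIs on average in WT and 1.38 in Het. Klhl33 had a UMI in 38.8% of WT and 19.4% of Het mOBs, Limch1 in 21.6% and 10.8%, Tdrp in 17.0% and 8.13%, Cdh15 in 19.2% and 14.1%, and Gal in 12.0% and 7.89%. By library, in the order S1, S2, S5 and S6 for WT and S3, S4, S7 and S8 for Het, Cd59a was found in 65.8%, 50.6%, 18.1% and 18.3% of WT mOBs and in 12.7%, 12.5%, 8.57% and 11.9% of Het mOBs. For Klhl33 these shares were 49.3%, 49.4%, 28.8% and 45.7% in WT and 26.6%, 20.8%, 10.5% and 21.4% in Het. The groups did not overlap for either gene. The choice of genes favoured this, here and for Limch1 below. The share of all genes with such an order was not counted, so nothing is read from it. Limch1 was found in 14.7% (S5) to 41.1% (S1) of WT and 8.86% (S3) to 11.9% (S8) of Het mOBs. Tdrp was found in 7.36% (S5) to 47.9% (S1) of WT and 2.38% (S8) to 10.4% (S4) of Het mOBs, so the groups overlapped for Tdrp but not for Limch1. Cdh15 was found in 10.0% and 11.1% of mOBs of S5 and S6, against 9.52% in both S7 and S8, and Gal in 3.68% and 10.6%, against 1.90% and 7.14%. With kit version 3.1 the shares of Cdh15 thus differed little and those of Gal overlapped. The pooled shares were above those in haematopoietic-like WT cells, which ran from 0.104% (Tdrp) to 2.97% (Cd59a) at a median depth of 4822.5 UMIs. Median depth in mOBs was 15782 UMIs in WT and 15425 in Het. With each cell thinned to 2000 UMIs, Cd59a was found in 6.01% of WT and 1.44% of Het mOBs, and Klhl33 in 9.25% and 5.05%. For Cd59a the thinned shares with kit version 3.1 were 2.40% and 2.90% in S5 and S6 and 0.962% and 2.44% in S7 and S8, the last pair from 1 cell each, and these overlapped. Thinned Cdh15 (3.70% and 5.05%) ran the other way from its CPM, and thinned Gal (1.54% and 1.44%) barely differed, so no order is read for these. In the same thinning, haematopoietic-like WT cells held Cd59a in 0.701% and Klhl33 in 0.397%. Intervals cover counting error only.

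Counting the 6 genes in each mOB, at least 1 was found in 91.8%, 80.5%, 47.2% and 63.0% of cells in WT libraries S1, S2, S5 and S6. The Het libraries S3, S4, S7 and S8 stood at 55.7%, 46.9%, 31.4% and 47.6%. The groups overlapped through S5. At least 4 genes were found in 42.5% and 35.1% of mOBs of S1 and S2, in 4.68% and 5.29% in S5 and S6, and in 0 to 3.65% in the Het libraries. Cells with all 6 genes numbered 6, all WT.

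**Figure D3:**
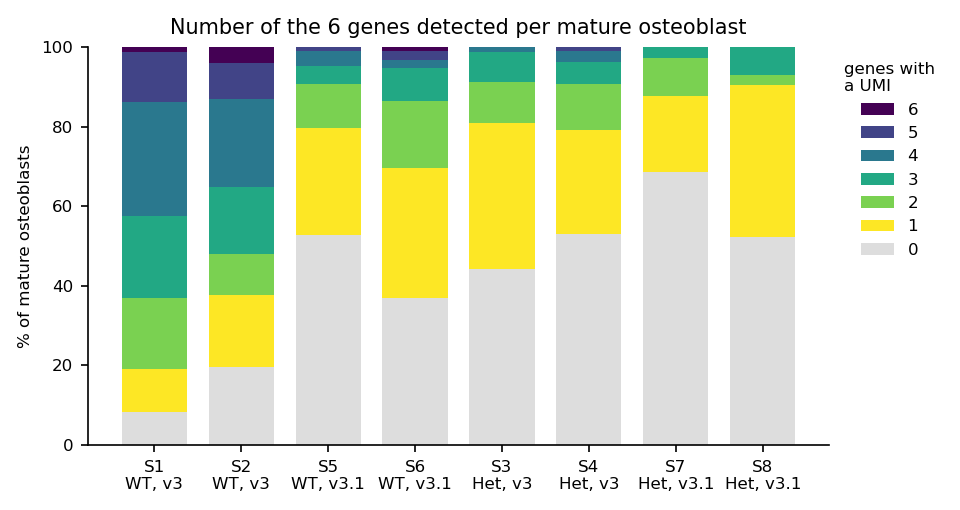
Share of mOBs (%) in each library by how many of the 6 genes had at least 1 UMI in the cell (0 in grey, 6 in dark violet), WT libraries at left and Het libraries at right, with the kit version under each. Cells with 4 or more genes make up 42.5% of mOBs in S1 and none in S7 and S8.

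Outside the osteoblast stages the genes had different homes. Among the 9 classes with at least 10 cells in 2 or more WT libraries, Cd59a was highest in erythroid-like cells and next in endothelial-like cells (62.6 ± 14.8 CPM), ahead of WT mOBs (48.3 ± 36.6), and these neighbours overlapped between libraries (SD, n = 4 WT libraries each). Glial-like cells were left out of this order, with 5 to 9 cells in each WT library, where Cd59a ran from 59.7 to 206 CPM. In Het libraries S3 and S4, with 21 and 45 glial-like cells, Cd59a was at 142 and 148 CPM. Limch1 was highest in eOBs, with endothelial-like cells at 286 ± 157 CPM next to dOBs. Klhl33 stood at 52.1 to 59.5 CPM on average in the 3 OB stages and at no more than 5.83 CPM elsewhere, and its dOB range did not meet the range of the next class. Cdh15 was at 21.1 to 30.5 CPM in the OB stages and at 4.80 ± 6.68 CPM in smooth muscle or pericyte-like cells. Tdrp in WT endothelial-like cells (4.71 ± 1.66 CPM) was close to its eOB level. Gal was found in mOBs, with no UMI among 8120670 of WT endothelial-like cells (at most 0.369 CPM) and none among 16692983 of erythroid-like cells (at most 0.180 CPM). In haematopoietic-like cells Gal was at 0.900 ± 0.337 CPM.

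**Figure D4:**
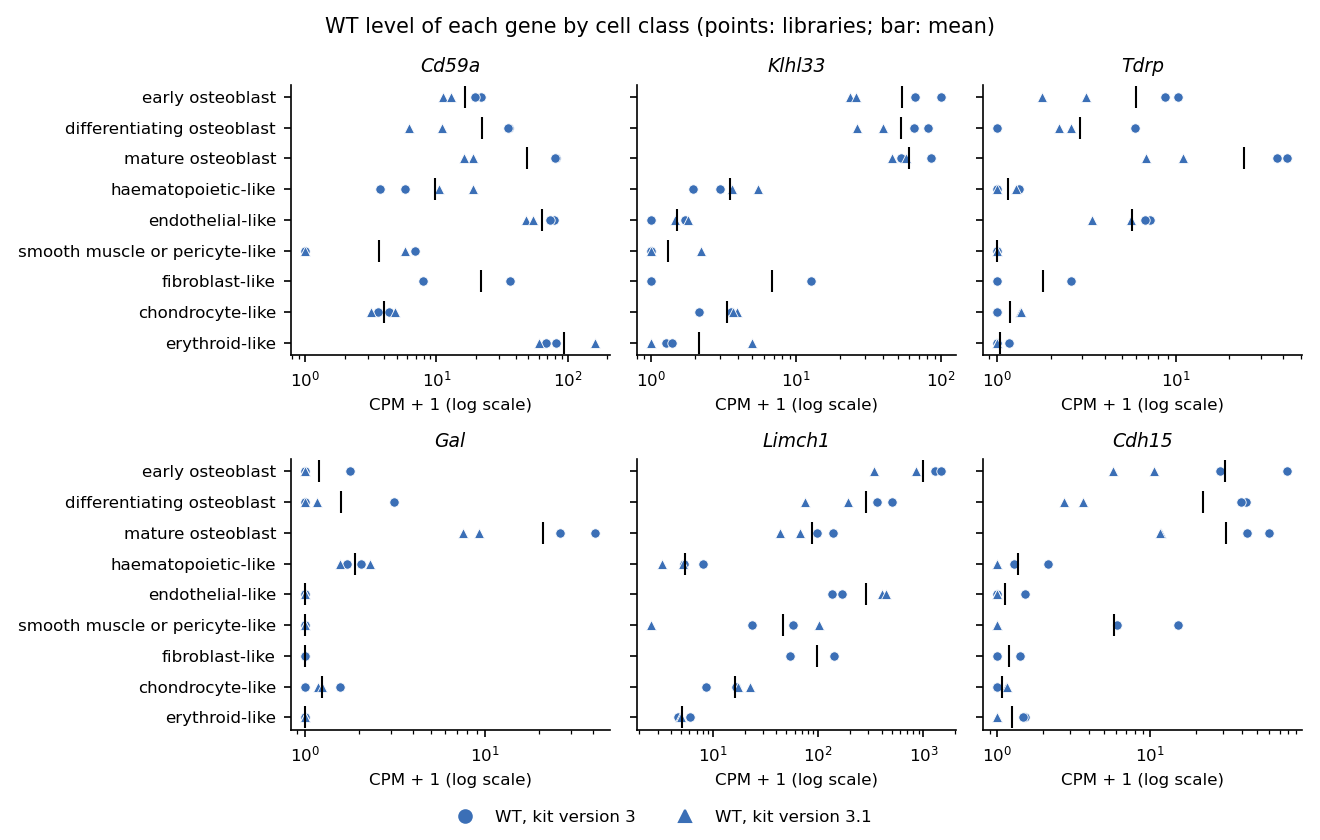
WT level of each gene (CPM plus 1, log scale) in the OB stages and in 6 other cell classes; points are WT libraries with at least 10 cells of the class (circles kit version 3, triangles kit version 3.1) and black bars their mean. Gal stands out in mOBs, Klhl33 in all OB stages, Limch1 in eOBs, and Cd59a in erythroid-like and endothelial-like cells.

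The comparison of Het with WT in other cell classes did not use the choice of genes and was tested. In chondrocyte-like cells (8 libraries), 10 of 14858 genes (0.0673%) were called, 5 higher and 5 lower (0.0337% each), none of the 6. Klhl33 had a log2 fold change of -0.95 (SE 0.30, unadjusted p = 0.0102 and adjusted p = 0.473, edgeR), at 2.32 ± 0.80 CPM in WT and 1.36 ± 0.53 CPM in Het. These levels were near those of haematopoietic-like cells, 2.49 ± 1.47 CPM in WT. Cd59a (-0.16, SE 0.25) and Limch1 (-0.05, SE 0.13) did not pass. In endothelial-like cells (8 libraries), 153 of 10441 genes (1.47%) were called, 67 (0.642%) higher and 86 (0.824%) lower in Het. Cd59a, expressed there, did not pass the test. It was at 77.9, 72.0, 46.7 and 53.8 CPM in WT libraries and at 50.8, 38.2, 45.7 and 37.0 CPM in Het libraries. The groups overlapped only through S3, which was above S5. The log2 fold change was -0.61 (SE 0.15, adjusted p = 0.0553, edgeR), and over the alternatives tried the adjusted p ran from 0.0021 to 1. Limch1 in endothelial-like cells had a log2 fold change of 0.04 (SE 0.10, adjusted p = 0.945, edgeR). In fibroblast-like cells only kit version 3 libraries had at least 10 cells. None of 10846 genes was called (0%) by edgeR, 494 (4.55%) had an unadjusted p under 0.05, and DESeq2 called 4 (0.0369%). Cd59a (0.30, SE 0.59), Limch1 (-0.33, SE 0.36) and Klhl33 (-0.40, SE 0.51) were within their error there. Tdrp, Gal and Cdh15 did not reach the count filter in these classes.

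The relatives and partners of the 6 genes were looked at in mOBs from 6 lists, in which 1 gene was called. Over all 9623 genes, 1076 (11.2%) had an unadjusted p under 0.05 by edgeR, and DESeq2 called 130 (1.35%). Of 12 complement regulators and inhibitors other than Cd59a, 6 were tested and none was called by edgeR or DESeq2, with 1 at an unadjusted p under 0.05. Cr1l, a membrane regulator of complement, was at 0.07 (SE 0.14), Clu, a secreted inhibitor of the membrane attack complex, at 0.18 (SE 0.36) and Serping1, the C1 inhibitor, at -0.20 (SE 0.29). The close paralogue Cd59b had 0 to 5 UMIs in mOBs of any library.

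Of 21 cadherins and catenins, 8 were tested and none was called by edgeR, while 5 had an unadjusted p under 0.05 and DESeq2 called Ctnnb1. Cdh11, the osteoblast cadherin, was at 789 ± 461 CPM in WT and 722 ± 543 CPM in Het (log2 fold change -0.32, SE 0.14, adjusted p = 0.401, edgeR). Cdh2, N-cadherin, was at -0.27 (SE 0.17), Ctnnb1, which encodes β-catenin, at -0.36 (SE 0.11) and Ctnna1, which encodes an α-catenin, at 0.27 (SE 0.12). Of the 8 tested, 5 had a positive fold change. Of 16 genes of the galanin system and other neuropeptides, Penk alone was tested (0.56, SE 0.22, adjusted p = 0.351, edgeR). The galanin receptor genes Galr1 and Galr3 had 0 UMIs in mOBs of all 8 libraries, and Galr2 had 0 to 7.

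Of 38 kelch-like and Cul3 ligase genes, 22 were tested and none was called by either tool, with 1 at an unadjusted p under 0.05. Cul3, the scaffold of these ligases, was at 89.2 ± 26.1 CPM in WT and 96.3 ± 35.9 CPM in Het (log2 fold change 0.02, SE 0.11), and its RING partner Rbx1 was at 0.00 (SE 0.10). Klhl9 was at -0.08 (SE 0.13) and Klhl24 at -0.43 (SE 0.19). Of 14 genes of non-muscle myosin II and its regulators, 13 were tested and none was called by edgeR, while 6 had an unadjusted p under 0.05 and DESeq2 called 2. Myl12a, a myosin regulatory light chain, was at 162 ± 58.9 CPM in WT and 241 ± 43.7 CPM in Het (0.56, SE 0.14, adjusted p = 0.0952, edgeR), and Myl6, an essential light chain, at 0.26 (SE 0.12). Rhoa, a small GTPase upstream of myosin activity, was at 0.21 (SE 0.11) and Lmo7 at -0.29 (SE 0.10), and 8 of the 13 had a positive fold change.

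Of 21 late osteoblast and osteocyte genes, 19 were tested, 1 was called by edgeR, 8 had an unadjusted p under 0.05, and DESeq2 called Bglap and Spp1. Bglap, which encodes osteocalcin, was lower in Het, at 2362 ± 1203 against 10648 ± 5918 CPM in WT. Its fitted difference was -2.08 (SE 0.40) on the log2 scale, with an adjusted p of 0.0434 by edgeR. Its near-identical neighbour Bglap2 was at -1.49 (SE 0.42, adjusted p = 0.169, edgeR), and reads may be split between them. Spp1, osteopontin, was at -0.60 (SE 0.17) and Smpd3 at 0.18 (SE 0.19). The median log2 fold changes of the 6 lists were -0.06, 0.15, 0.56, -0.10, 0.20 and 0.14 in the order given, against 0.01 over all genes tested.

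**Figure D5:**
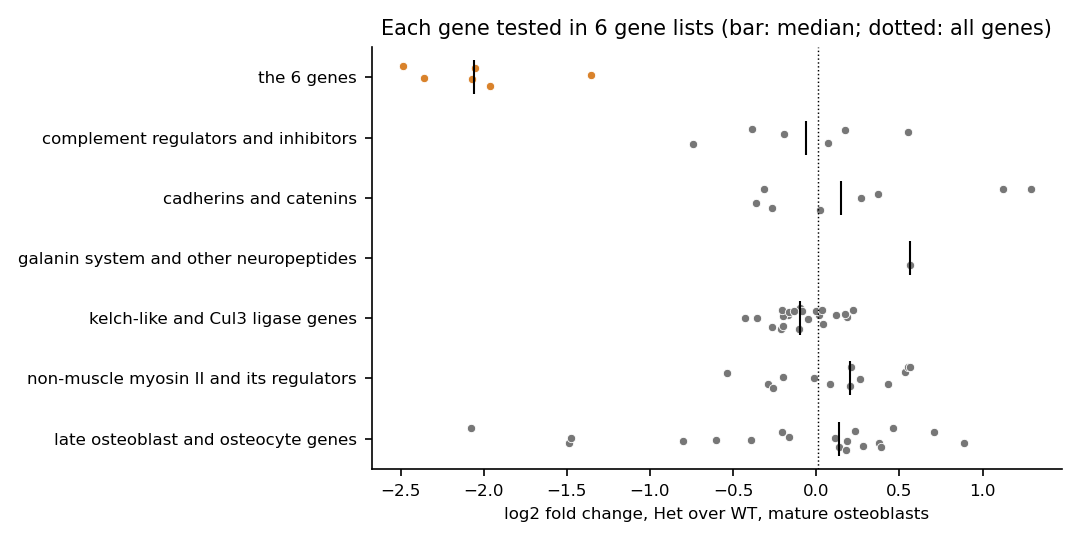
Fitted log2 fold change, Het over WT in mOBs, of the 6 genes (orange, chosen for low values) and of every tested gene of 6 lists (grey); black bars are medians and the dotted line is the median of all genes tested. The 6 genes lie between -2.49 and -1.36, and among the listed genes Bglap, at -2.08, is the farthest below 0.

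The genes whose WT profile was most like each of the 6 were found by Pearson's r of log2(mean CPM + 1) over 9 classes, among 7978 other genes with at least 10 CPM in WT mOBs. These are descriptions over few points that share libraries. Gal was closest to Sost (0.94), an osteocyte Wnt inhibitor, C430049E01Rik (0.92) and Bglap3 (0.92). Cdh15 was closest to Dmp1 (0.99), Spp1 (0.99) and Scn3a (0.98), of which Dmp1 and Spp1 encode matrix proteins of late osteoblasts. Klhl33 was closest to Panx3 (0.98), a pannexin channel gene of osteoblasts, Prtg (0.95) and Megf10 (0.94). Tdrp was closest to Rhbdl2 (0.95), Cipc (0.91) and Enpp6 (0.89). Cd59a was closest to Aqp1 (0.91), a water channel of erythroid and endothelial cells, Dennd2c (0.88) and Smox (0.84). Limch1 was closest to Pcnx3 (0.92), Dpysl3 (0.91) and Exoc3l4 (0.91). Between the 6 genes themselves r ran from 0.02 (Gal and Limch1) to 0.84 (Klhl33 and Cdh15).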

How the data were processed

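Droplet-based single-cell RNA sequencing of parietal bone gave 8 libraries, 4 WT and 4 Het. The authors aligned reads to mm10, called cells and made the deposited UMI count matrices with Cell Ranger (5.0.0 for kit version 3 and 6.0.1 for kit version 3.1, per the file headers), and the counts are raw, per gene and cell. Mapping of reads to near-identical genes by that software can lower their counts. Cells with at least 500 genes and under 10% mitochondrial UMIs were kept, and doublets were kept. Other classes needed at least 3 markers with at least 2 UMIs each, fewer than 3 markers of any other class, and no OB selection; the 2-UMI limit was set after cell numbers were seen. Each class was named from a fixed list of markers, and no annotation was used. The stage limits are those of the authors, and their UMI limits for OB markers are not given in the text used here, so cell numbers can differ from the study's.

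Counts were summed per library and class (at least 10 cells) and tested with edgeR 4.0.16 (limma 3.58.1, R 4.3.3: filterByExpr, TMM, glmQLFit, glmQLFTest, kit version and genotype in the model) with Benjamini-Hochberg adjustment, called at an adjusted p under 0.05. The script was tested on simulated data. Standard errors came from the fold change and F. Ratios across stages used log2(CPM + 1). Intervals of shares are exact (Clopper-Pearson, 95%), a count of 0 is taken to allow 3 counts, and both cover counting error only. DESeq2 1.42.0 was an alternative. Others were the normalization, the count filter, the kit version term, the replicate block, the OB and stage limits, doublets, thinning, collagen genes left out, and each library left out. Python 3.11.15 (numpy 2.4.6, pandas 2.3.3, scipy 1.17.1, matplotlib 3.10.9) was used for cells. Positions are from GENCODE release M21. Pools may share litters or preparations, so p-values measure the spread between these libraries only. In such sums, fewer cells with a gene and less RNA per cell cannot be told apart, and shares of cells are given for this reason.

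The 6 genes, the gene lists and the tests were chosen with earlier results of these data known. Genes named are the 6, the called genes of each list with up to 4 more of the highest WT mOB level, and the 3 closest profiles of each gene. Those of other kinds (Wif1, Sned1, 4833422C13Rik, Cd59b, the galanin receptors and the markers) were chosen after values were seen. The values of 2 genes of the lists are not reported here.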

Additional observations from a re-analysis of the deposited data

Results flagged for a closer look

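In 62 groups of 4 libraries, the distance of the highest or lowest library from the rest was compared with the group's range (Dixon's 95% critical value), and 4 groups passed. Chance alone flags about 1 in 20 groups, close to 4 of 62. Gal in Het dOBs was at 11.5 CPM in S3 and at 0 in the other 3 libraries, and all 12 UMIs of S3 were in 1 cell. Klhl33 in Het dOBs was at 24.2 CPM in S4, above the other 3 Het libraries. Cdh15 in Het dOBs was at 20.5 CPM in S4, also above the other 3. Limch1 in Het eOBs was at 120 CPM in S3 (29 UMIs), below the other 3 Het libraries.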

How the results depend on the processing

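The log2 fold changes of the 6 genes in mOBs stayed negative under all alternatives that gave a value, each library left out included (with thinned cells only Limch1 reached the count filter): Cd59a from -2.92 to -1.39, Klhl33 from -2.15 to -1.76, Tdrp from -2.57 to -1.85, Gal from -2.24 to -1.50, Limch1 from -3.08 to -0.997 and Cdh15 from -1.57 to -1.05. The ends nearest to 0 of Cd59a, Tdrp, Gal, Limch1 and Cdh15 came with kit version 3.1 alone, an alternative added after seeing the data. The alternatives reuse the libraries in which the genes were chosen for lower Het levels. The choice thus favoured the constant sign, and nothing is read from it. The number of genes called in mOBs (51) was 130 with DESeq2, 536 with no count filter, 0 with no kit version term (254 at an unadjusted p under 0.05), 82 with mOBs over 5% Col1a1, 129 without OBs that had markers of another class (S8 then had under 10 mOBs and was dropped), 27 with thinned cells, 455 in kit version 3 alone and 2 in kit version 3.1 alone. With 1 library left out it ran from 11 (without S2) to 166 (without S7), with 154 without S8, 16 without S4, 19 without S1, 23 without S3 and 26 without S6. With the replicate number within the kit version as a block it was 26. Same-numbered libraries did not deviate together (r -0.05 in kit version 3 and -0.03 in kit version 3.1, within group and kit), so the numbers were not taken as a pairing. The block changed no call of the 6 genes in another class.

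From WT eOBs to dOBs the 520 calls became 1342 with no filter, 4 with no library block, 990 and 249 with looser and stricter OB selection, and 108 (without S6) to 629 (without S1) with 1 library left out, with 265 without S5. The chondrocyte-like count (10) was 86 with DESeq2, 59 with no filter, 0 with no kit version term (156 at an unadjusted p under 0.05) and 0 (without S8) to 21 (without S6) with 1 library left out, with 1 without S7 and 5 without S2 or S4. The fibroblast-like count (0) was 4 with DESeq2, 175 with no filter and 0 to 793 (without S2) with 1 library left out, with 241 without S1; there the lone WT library was assumed to vary like the Het ones. The endothelial-like count (153) was 466 with no filter, 0 with no kit version term (224 at an unadjusted p under 0.05) and 50 (without S4) to 183 (without S7). The cause of these shifts was not tested.

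Cd59a in endothelial-like cells passed the test with no filter (adjusted p = 0.0021, edgeR), without S5 (0.0419) and without S7 (0.0202). Limch1 in fibroblast-like cells passed without S2 (-0.67, adjusted p = 0.00778, edgeR). Small values changed sign without passing. From WT eOBs to dOBs, Klhl33 did so with no block (-0.020), stricter selection (-0.084) and no OBs with other markers (-0.18), and with 1 library left out it ran from -0.035 (without S6) to 0.331 (without S1) and Cd59a from -0.188 (without S1) to 0.512 (without S5). In chondrocyte-like cells, leaving out 1 library gave -0.401 (without S6) to 0.17 (without S5) for Cd59a and -0.170 (without S6) to 0.093 (without S5) for Limch1. In endothelial-like cells Limch1 ran from -0.016 (without S5; -0.009 without S7) to 0.130 (without S1). In fibroblast-like cells Cd59a was -0.36 with DESeq2, -0.068 with the block, and -1.39 (without S1; -0.46 without S3) to 0.755 (without S2). There Limch1 ran from -0.67 to 0.95 (without S1) and Klhl33 from -0.576 (without S2) to 7.02 (without S1, against a WT library at 0). The WT mOB to eOB ratio changed sign for Klhl33 (-0.14) and Cdh15 (-0.82) without OBs that had markers of another class. Small counts limit Gal and Tdrp most, since Het mOBs of kit version 3.1 held 7 UMIs of Gal and 6 of Tdrp.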
